A study of Dicentrarchus labrax with 16 samples.

Results

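Genes with high expression in both muscle and testis of the European sea bass (Dicentrarchus labrax) were described here. RNA-seq was carried out on both tissues of 5 wild adult fish, caught by speargun outside the reproductive season, and the groups were the tissues, with no treatment. The authors deposited 1 expression value per gene and tissue, which they named cpm, after they had left out 1 muscle sample. The muscle table lists 12715 genes, 16380 genes are listed for testis, and 10538 genes are in both. Genes were taken from these shared genes. The 100 with the highest muscle values were left out, the rest were ranked by value within each tissue (1 is the highest), and the 200 genes whose larger rank was smallest were kept. The genes were thus selected on the same expression values that are described below, which makes these values a description, with no test. Single fish have no value of their own in these tables. The spread between fish is therefore unknown, and the read depth behind a value is unknown.

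Genes with high mRNA levels in unrelated tissues are, as general background, often those that every cell needs, such as the genes of protein synthesis, energy metabolism and the cytoskeleton. Skeletal muscle consists largely of muscle fibers, and much of its mRNA codes for contractile proteins and for enzymes of energy supply. The testis holds germ cells at several stages and supporting somatic cells, and it transcribes a larger variety of genes. The deposited tables give gene identifiers without names, and 0 of them matched the RefSeq gene table for this species. Which of these roles the 200 genes have was therefore not analysed here. For the same reason, defining markers of muscle and testis could not be looked up, and the tissue labels were not checked against them. No sequences or positions of the genes were used.

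The 200 genes had muscle values from 61.8 to 528.5, with a median of 173.6, and testis values from 179.3 to 5273, with a median of 439.5. The range was thus wider in testis, where the highest value was 29.4 times the lowest, than in muscle, where it was 8.55 times. In muscle the upper end was set by the genes left out, the lowest of which had a value of 529.8. Over all 10538 shared genes the median value was 5.83 in muscle and 40.5 in testis, so the selected genes lay far above the typical shared gene in both tissues, as the selection requires. In the complete tables, with all genes listed for a tissue, the 200 genes held ranks 133 to 844 of 12715 in muscle and 1 to 592 of 16380 in testis. They were thus high in both tissues, and in muscle they came after the genes left out.

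**Figure D1:**
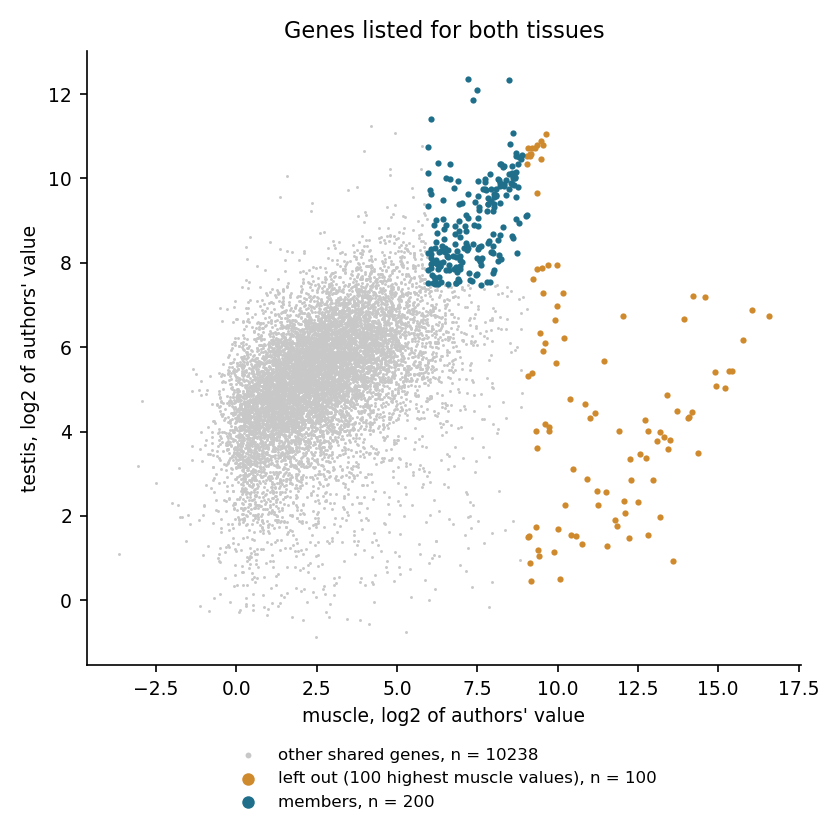
Each point is a gene listed for both tissues, with the log2 of the authors' muscle value on the x axis and the log2 of the testis value on the y axis. The 200 selected genes (blue) fill the corner above 61.8 in muscle and 179.3 in testis, and most of the 100 genes left out (orange) lie to the right of it and lower in testis.

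The gene with the best place had a muscle value of 470.9 (rank 6) and a testis value of 1517 (rank 14). The last gene kept had a muscle value of 61.8 (rank 569) and a testis value of 183.3 (rank 538), and the one before it had 62.0 (rank 566) and 227.8 (rank 385). Just outside, the next gene had a muscle value of 91.0 (rank 366) and a testis value of 177.1 (rank 571), and the one after it had 148.3 (rank 210) and 177.0 (rank 572). The limit thus cut through a continuous series of values. In each tissue 569 of the ranked genes were within the limit, and the 200 genes made up 35.1% of them in either tissue.

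Genes at the very top of both rankings, which hold the shared genes without the 100 left out, were a minority of the set. Both ranks were at most 100 for 46 of the 200 genes and at most 200 for 84. In these rankings, 106 genes of the set were among the 200 highest of muscle and 122 among the 200 highest of testis. The larger rank was the muscle rank for 118 genes and the testis rank for 80, and the ranks were equal for 2. In the later blocks of 200 genes described below, the muscle rank was the larger for 101 to 127 genes, which includes 118. The number also rests on the rule of selection. It was 113 with the 100 highest of each tissue left out and 119 with the mean of the ranks. It rose to 153 with no gene left out and to 161 with ranks within whole tables. In the selected set, the ranks differed by a median of 85.5 places. They lay within 50 places of each other for 75 genes and more than 300 apart for 20 genes.

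**Figure D2:**
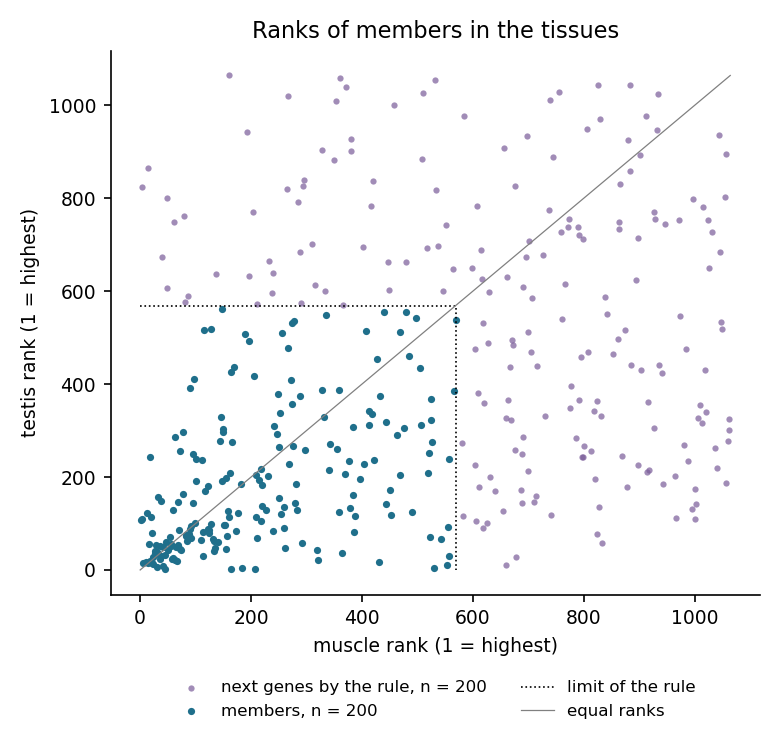
Each point is a gene, with its rank in muscle on the x axis and its rank in testis on the y axis (1 is the highest). The 200 selected genes lie inside the dotted limit at rank 569. They crowd near the diagonal at the lower left, where 46 genes had both ranks at most 100, and scatter over the square further out.

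Over the 200 genes, Spearman's rank correlation between muscle and testis values was 0.503. It was 0.496 over all shared genes and -0.284 over the next 200 genes in the order of the selection. These correlations are across genes that share the same libraries, and the shape of the selected area shapes them. The next 200 genes lie in an L-shaped strip around the square.

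The testis value was higher than the muscle value for 191 of the 200 genes (95.5%), with the values as deposited, and among all shared genes the share was 92.0%. Both shares rest on how the tables are scaled to each other. With each table scaled to its own sum, 199 of the 200 genes and 94.2% of all shared genes were higher in testis. With both tables scaled to the sum of the shared genes without the 100 left out, it was 50 genes and 67.8%. Those 100 held 70.7% of the muscle sum and 3.23% of the testis sum, so leaving them out moves ratios toward muscle. With the scale estimated from a pooled level, as given below, 14 of the 200 genes and 41.0% of all shared genes were higher in testis. The share in the set was thus above that of all shared genes as deposited and with own sums, and below it with the other scalings. As deposited, the median log2 ratio of testis over muscle was 1.56 (quartiles 1.07 and 1.97), and it was 2.74 over all shared genes. The tables do not state how they are scaled to each other, and their values sum to 1111921 in muscle and 801212 in testis. A common factor shifts every ratio by the same amount, so the ratios were also read relative to the median of all shared genes, which no such factor changes. Relative to this median, the 200 genes had a median log2 ratio of -1.18, toward muscle. In bulk tissue, more cells of a type and more mRNA per cell cannot be told apart.

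A ratio more than 2-fold from the median of the shared genes was found for 136 of the 200 genes, against 50.2% of all shared genes. Of these, 128 (64.0%) lay below it, toward muscle, and 8 above it, toward testis. Over all shared genes the shares were 27.2% below and 22.9% above. The selection used both values of the ratio, so nothing is read from these counts.

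The ratios were close together in the set. Their interquartile range was 0.90 on the log2 scale, and it was 1.26 over the next 200 genes and 2.03 over all shared genes. A log2 ratio within 0.5 of the median of the set was found for 107 of the 200 genes (53.5%), and for 17.3% of all shared genes. The median of the shared genes was 2.74, so the 17.3% also reflects the distance between the medians. Within 2-fold of their own median lay 74.5% of the 200 genes, and 49.8% of all shared genes lay within 2-fold of theirs. Within the set the ratios were closest at the top. The first 40 genes had a median log2 ratio of 1.57 and an interquartile range of 0.42. The 4 later groups of 40 had interquartile ranges from 0.96 to 1.32 and medians from 1.24 to 1.83. Of the 46 genes with both ranks at most 100, 39 lay within 0.5 of their median of 1.56. The log2 ratios of all 46 ran from 0.85 to 3.83. With other ways of choosing 200 genes, the interquartile range was 0.93 to 1.22. A selection by rank in both tissues limits how far the ratio can range, and the first 40 genes had both ranks at most 86. How much of the narrow spread, in the set or at its top, comes from the selection was not tested.

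**Figure D3:**
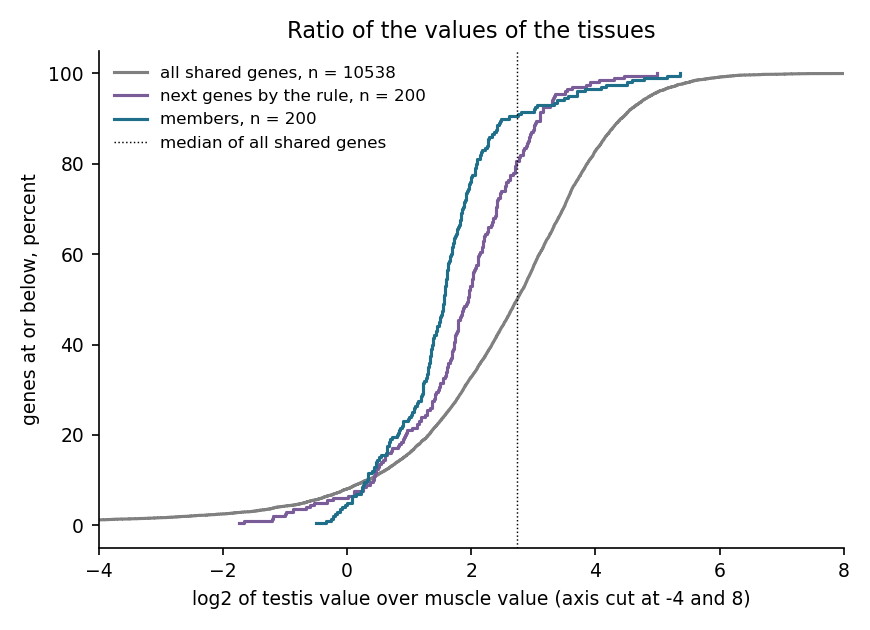
The curves show, for each log2 ratio of testis over muscle value on the x axis, the percent of genes at or below it. The 200 selected genes rise most steeply, with a median of 1.56. The next 200 genes have a median of 1.95, and all shared genes 2.74 (dotted line).

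The ratio also varied with rank when values of equal rank in the tissues were compared. At rank 100 the muscle value was 251.6 and the testis value 599.4, a log2 ratio of 1.25. At rank 200 the log2 ratio was 1.10. The median ratio of the set, 1.56, lay above both. At rank 500 the values were 69.0 and 192.0, a log2 ratio of 1.48. At rank 5000 the values were 6.14 and 42.6, and the log2 ratio was 2.79. At the first places it was 3.32 (rank 1) and 1.90 (rank 10). These rankings lack the 100 genes left out, whose muscle values reached 96984. Muscle therefore starts at 528.5, while testis keeps its highest value of 5273. This one-sided cut shapes the ratios at the first places, so nothing is read from them. The log2 ratio was lower at ranks 100 to 500 than at rank 5000, by amounts that a common factor does not change. Which of these ranks have the tissues nearest to each other does rest on the scaling. With the scale from the pooled level the log2 ratio was -1.81 at rank 100, -1.96 at rank 200, -1.59 at rank 500 and -0.27 at rank 5000, with the muscle value the higher one.

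**Figure D4:**
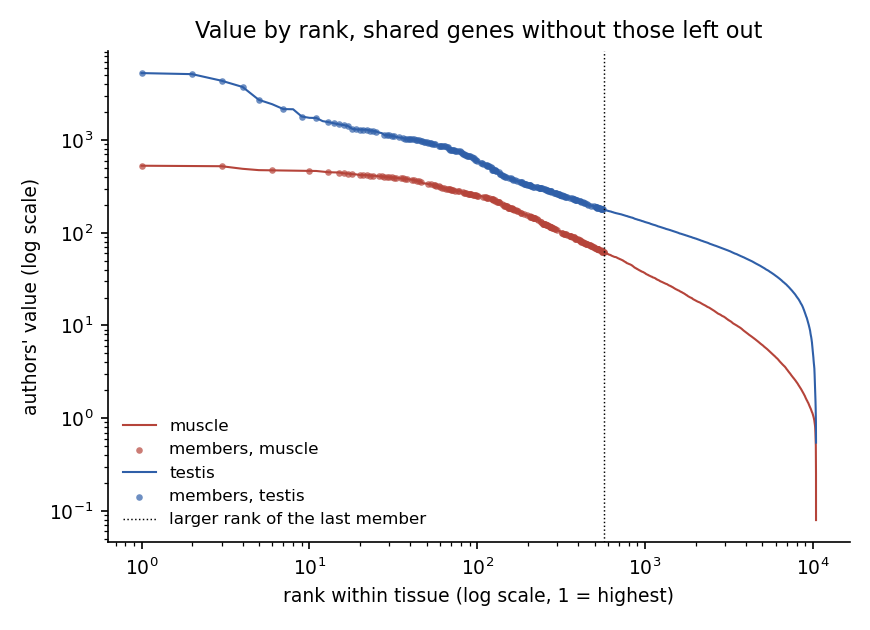
Lines show the authors' value against rank in each tissue for the shared genes without the 100 left out, both axes on a log scale, and points mark the 200 selected genes. With the values as deposited, the testis line lies above the muscle line, by a log2 ratio of 1.10 at rank 200 and 2.79 at rank 5000. With the scale from the pooled level these would be -1.96 and -0.27, with the muscle line above.

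The first 2000 genes in the order of the selection were also taken in 10 blocks of 200. Later genes were not taken in blocks. The median log2 ratio was 1.56 in the selected genes, 1.95 in the second block, 2.02 in the third and 2.15 in the fourth, and 2.56 in the tenth. The median muscle value fell from 173.6 in the selected genes to 11.2 in the tenth block, and the median testis value fell from 439.5 to 63.5. As deposited, 182 to 194 of 200 genes in each of the 10 blocks had the higher value in testis. With the sum of the shared genes without the 100 left out as the scale, the number was 50 in the selected genes and 97 to 139 in the other blocks. With the scale from the pooled level it was 14 in the selected genes and 21 to 57 in the others. The order of the blocks comes from both values of the ratio, so nothing is read from these differences between blocks.

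**Figure D5:**
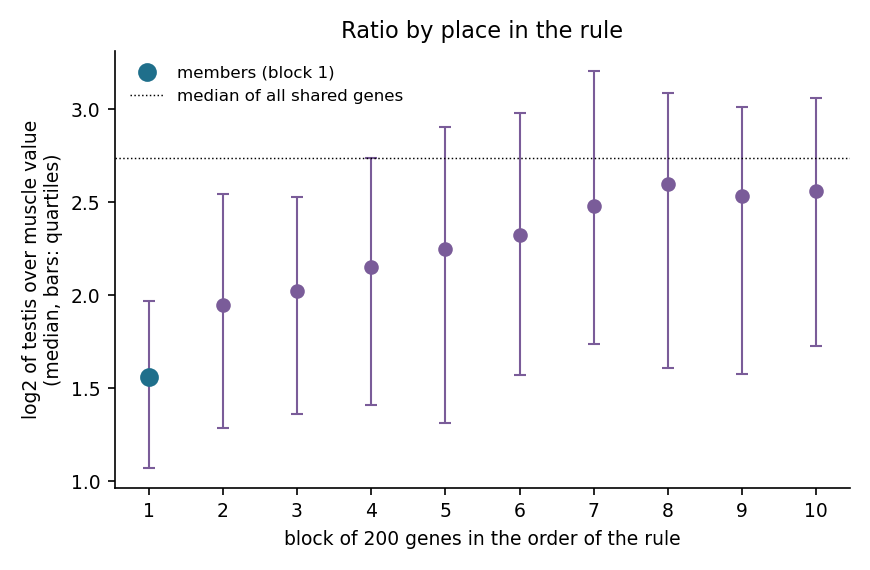
Points are the median log2 ratio of testis over muscle value in 10 blocks of 200 genes in the order of the selection, and bars span the quartiles. The selected genes (block 1) have the lowest median of these 10 blocks, 1.56, and none of the 10 reaches the median of all shared genes, 2.74 (dotted line). The 10 blocks hold only the first 2000 places, and both values of the ratio set their order.

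The genes with the largest ratio toward testis were DLAgn_00109670 and DLAgn_00134660. DLAgn_00109670 had a value of 66.0 in muscle (rank 529) and 2713 in testis (rank 5), a log2 ratio of 5.36. DLAgn_00134660 had 148.8 in muscle (rank 207) and 5273 in testis, the highest value of the whole testis table, a log2 ratio of 5.15. The set held 6 of the 10 highest values of the complete testis table and 72 of its 100 highest. All 6 genes of the set with a testis value over 2000 had muscle values between 66.0 and 395.1. The 8 genes of the set more than 2-fold above the median ratio of the shared genes had testis values from 1125 to 5273. Their muscle values were from 62.5 to 361.7.

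At the other end were DLAgn_00141580 and DLAgn_00065800. DLAgn_00141580 had a value of 428.3 in muscle (rank 18) and 302.3 in testis (rank 242), a log2 ratio of -0.50. DLAgn_00065800 had 236.5 in muscle (rank 115) and 187.0 in testis (rank 517), a log2 ratio of -0.34. In all, 9 genes had a higher value in muscle as deposited, with muscle values from 194.1 to 428.3 and testis values from 179.3 to 385.2. This direction rests on the scaling as well.

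The 200 genes held 3.58% of the summed muscle values and 16.7% of the summed testis values, while they were 1.57% and 1.22% of the listed genes. The 100 genes left out held 70.7% of the muscle sum and 3.23% of the testis sum. When these were taken out of both sums, the 200 genes held 12.2% in muscle and 17.3% in testis. The next 200 genes held 1.28% and 5.86%.

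Some of the genes left out had values in testis like those selected. Of the 100, 14 were among the 200 highest testis values of the shared genes, with muscle values from 529.8 to 788.6, testis values from 811.4 to 2118 and log2 ratios from 0.30 to 1.66. In contrast, 60 of the 100 lay below the median of the shared testis values. With no gene left out, 19 of them entered the set and 181 of the 200 genes remained. Of the genes listed for testis alone, 11 of 5842 had a value above the lowest testis value of the set. That value held rank 592 of all 16380 genes listed for testis. Of the genes listed for muscle alone, 175 of 2177 had a value above the lowest muscle value of the set. That value held rank 844 of all 12715 genes listed for muscle. The 2 limits cut off unlike shares of the tables, so the counts were not compared.

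The authors also deposited a pooled level, named baseMean, in the table of their comparison of the tissues. It comes from the same libraries and is no separate measurement. The 200 genes had baseMean values from 13415 to 187772, with a median of 38617, while the median was 2200 over all shared genes. Among the 26719 genes with a baseMean they held ranks 69 to 896. All 200 were among the 1000 highest, and 46 were among the 200 highest, which also held 97 of the 100 genes left out. Over the set, Spearman's rank correlation of baseMean was 0.854 with the muscle value and 0.798 with the testis value.

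The pooled level bears on the scale of the tables. When baseMean of the shared genes was fitted as a weighted sum of the muscle and testis values, 1 unit of the muscle value counted 6.68 times as much as 1 unit of the testis value. The residual SD over all shared genes was 0.38 on the log2 scale. By this fit the muscle value made up a median of 69.3% of the pooled level of a gene in the set, from 14.0% to 90.4%. The pooled level was assumed to hold 4 muscle and 5 testis libraries. Under this assumption, the weights correspond to a gap of 3.06 on the log2 scale between the scales of the tables. On that scale 14 of the 200 genes had the higher value in testis, with a median log2 ratio of -1.50, and the median of all shared genes was -0.32. Whether more of these genes have their higher level in testis or in muscle is therefore not settled by the expression values and the pooled level. The authors' own fold changes bear on this direction and were not used here. Relative to the median of the shared genes, the 200 genes lay at a median of -1.18 on the log2 scale, toward muscle. A common factor cannot change this value, so its being the same on each of these scales was fixed in advance. The selection used both values of the ratio, so nothing is read from this place.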

How the data were processed

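The authors aligned RNA-seq reads of muscle and testis from 5 fish to the sea bass genome with GEMtools, quantified genes with the same pipeline, excluded 1 muscle sample and scaled by TMM, which balances library composition. They deposited 1 expression signal per gene and tissue, named cpm, and a pooled signal, baseMean, beside their own fold changes, statistics and p-values, which were not used. The sources used here do not give how fish were combined, which genes were listed or whether the deposited cpm values carry the TMM scaling. Values did not fall on shared steps (4 values in muscle and 6 in testis repeated another), so reads per gene were not recovered. The depth behind each value is thus unknown. The paper gives read numbers per library, which were not used here. RRBS libraries of 3 of the fish (6 libraries) were not used, since positions of the genes were not at hand.

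The 200 genes and all summaries were chosen with earlier results of these data known. Ratios are log2 of testis over muscle value without a pseudocount. Genes named are the 2 with the largest and the 2 with the smallest ratio. The weights of both tables in baseMean were estimated by least squares on the log2 scale. Alternatives were no gene left out or the 100 highest of each tissue, mean ranks, 100 or 400 genes, ranks in whole tables, a pseudocount of 1, values of at least 1, and 3 scalings. The code of the selection and of the fit was checked on simulated data with planted genes and known weights. This does not check whether the weighted sum is the right form for baseMean. No test was made, as there was 1 value per gene and tissue. The tools were scipy 1.17.1, pandas 2.3.3 and numpy 2.4.6 under Python 3.11.15, with matplotlib 3.10.9 for the plots.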

Additional observations from a re-analysis of the deposited data

How the results depend on the processing

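No paired analysis was possible because the expression tables hold 1 value per gene and tissue, and for the same reason no fish could be left out. The direction of the median ratio rests on the scaling. It was 1.56 as deposited, 2.04 with each table scaled to its own sum, and it turned to -0.41 with both tables scaled to the sum of the shared genes without the 100 left out. Those 100 were chosen by muscle value and held 70.7% of the muscle sum and 3.23% of the testis sum. Leaving them out of the sums thus moves ratios toward muscle by construction. The median ratio turned to -1.50 with the weights in the pooled level, a scaling chosen after seeing the data. The number of genes higher in testis was 50 and 14 under the last 2. The number more than 2-fold from the median of the shared genes was 136 under each scaling. This was fixed in advance, since a common factor cannot change it. With a pseudocount of 1 the number was 101. The median log2 ratio of the shared genes was then 2.47, against 2.74 without a pseudocount, and that of the set was 1.55. The share over all shared genes was not computed for this setting, so nothing is read from the 101.

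With no gene left out, the set held 4.61% of the muscle sum, with a median baseMean of 45788. The muscle rank was then the larger for 153 genes, against 118 in the selected set. With the 100 highest of each tissue left out, 128 of the 200 genes were kept, the median log2 ratio was 1.43, its interquartile range 1.22, the shares 2.40% and 7.56%, Spearman's correlation 0.229 and the median baseMean 22860. With the mean of the ranks, the interquartile range was 1.16 and the correlation 0.313. With ranks within whole tables, the median was 1.38 and the interquartile range 1.14, and the muscle rank was the larger for 161 genes.

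With 100 genes, all 100 of them in the set, 98 were higher in testis, 74 more than 2-fold from the shared median and 58 limited by the muscle rank. The interquartile range was 0.60, the shares 2.56% and 11.8%, the correlation 0.435 and the median baseMean 64439. With 400 genes, 379 were higher in testis, 223 more than 2-fold from the shared median and 245 limited by the muscle rank. The median ratio was 1.70, the interquartile range 1.11, the shares 4.87% and 22.6%, and the median baseMean 21350.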
